A study of Homo sapiens with 6 samples.

Results

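The genes described here are 8 that start or restrain apoptosis, measured in Het1A cells: the death receptors FAS, TNFRSF10A and TNFRSF10B, the decoy receptor TNFRSF10D, the adaptor FADD, the inhibitor CFLAR, and the initiator caspases CASP8 and CASP9. They were taken from the deposited count table by gene symbol, 8 of 58735 genes, and all 8 passed the filter on low counts along with 17743 genes in all. Het1A is an established, SV40 T antigen-immortalised epithelial line of the human oesophagus, so every value describes 1 line. RNA-seq libraries were made from 3 bile acid and 3 control cultures, all held in 1% FBS from 48 h before treatment. Bile acid cultures received KSFM at pH 4.0 with 100 µM of mixed glycocholic, taurocholic, glycodeoxycholic, glycochenodeoxycholic and deoxycholic acid for 10 min a day on 5 days. Control cultures received 0.1% DMSO, and no label says that their medium was acidified, so acid and bile acids cannot be told apart here. RNA was collected 24 h after the last exposure. The labels call the libraries biological replicates without saying how the cultures were separated, so the p-values measure only the spread between these libraries.

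Death receptors are membrane proteins that carry a death domain on the inner side of the membrane. When FAS binds FAS ligand, or when TNFRSF10A or TNFRSF10B binds TRAIL, the receptor gathers FADD and procaspase-8 into a complex in which caspase-8 cleaves and activates itself. CFLAR encodes FLIP proteins, relatives of caspase-8 that enter the same complex and hold this step back. CASP9 is the initiator caspase of the other branch, in which cytochrome c leaving the mitochondria assembles APAF1 into the apoptosome. In epithelia both branches end in the executioner caspases.

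Libraries held 21006677 to 28497721 counts. Control 2 stood apart: 19101 genes were detected there, and 24174 to 25337 in each of the other libraries. Over 15387 genes, the SD of the log2 difference between a library and the rest was 1.17 for control 2 and between 0.294 and 0.531 for the others. Across genes, which are not independent replicates, this difference had a Spearman rho with exonic length of −0.415 in control 2, −0.234 in bile acid library 2 and 0.261 to 0.358 in the other libraries. Of 9 epithelial markers, the keratin KRT8 lay between 325 and 654 CPM (counts scaled to library depth, with TMM factors) and KRT18 between 193 and 658 CPM. The squamous markers KRT5, at 0 to 0.511 CPM, and TP63, at 0 to 0.0731 CPM, were close to 0 in all libraries. The leukocyte markers PTPRC and CD3E and the endothelial marker CDH5 had 0 counts in every library, and the summed leukocyte list lay at 9.93 to 13.0 CPM in control and 13.0 to 16.8 CPM in bile acid libraries, with CD14 at 9.16 to 16.1 CPM. The fibroblast list summed to 165.8 to 298.8 CPM in control and 192.2 to 322.3 CPM in bile acid libraries. Of its 8 markers 4 lay under 1 CPM in every library, among them COL3A1 at 0 everywhere. PDGFRA lay at 0 to 1.21 CPM, COL1A1 at 42.7 to 231 CPM, THY1 at 73.8 to 179 CPM and PDGFRB at 9.13 to 23.5 CPM. The part of these markers in the results was not tested.

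No member passed the test between bile acid and control libraries, and 4 of the 8 nevertheless had all bile acid libraries above all control libraries. These were FAS, TNFRSF10A, FADD and CASP8, while the groups of the death receptor TNFRSF10B overlapped, as did those of TNFRSF10D and CFLAR. Over the 8 genes 7 log2 fold changes were positive, with a median of 0.475, against a median of −0.0111 over all genes tested, of which 48.8% were positive. In edgeR's quasi-likelihood test with Benjamini-Hochberg adjustment 0 members were called, as were 0 of all 17743 genes tested (0%). The lowest adjusted p among the members was 0.911 in edgeR, which was also the lowest over all genes. At an unadjusted p under 0.05 there were 2 members higher in bile acid, FAS and TNFRSF10A, where 1.93% of all genes were, and 0 lower, where 1.39% were. DESeq2 on the same counts called 19 genes (0.107%) and limma-voom 0, with 0 members in either. In bulk RNA a lower share of cells that express a gene and less RNA per cell cannot be told apart. The counts of groups without overlap compare with 5.29% of all tested genes that had every bile acid library above every control library and 4.89% that had every one below. The 8 genes and the lists below were chosen with earlier results of these data known. Their counts and medians beside those of all genes are therefore a description and no independent evidence.

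**Figure D1:**
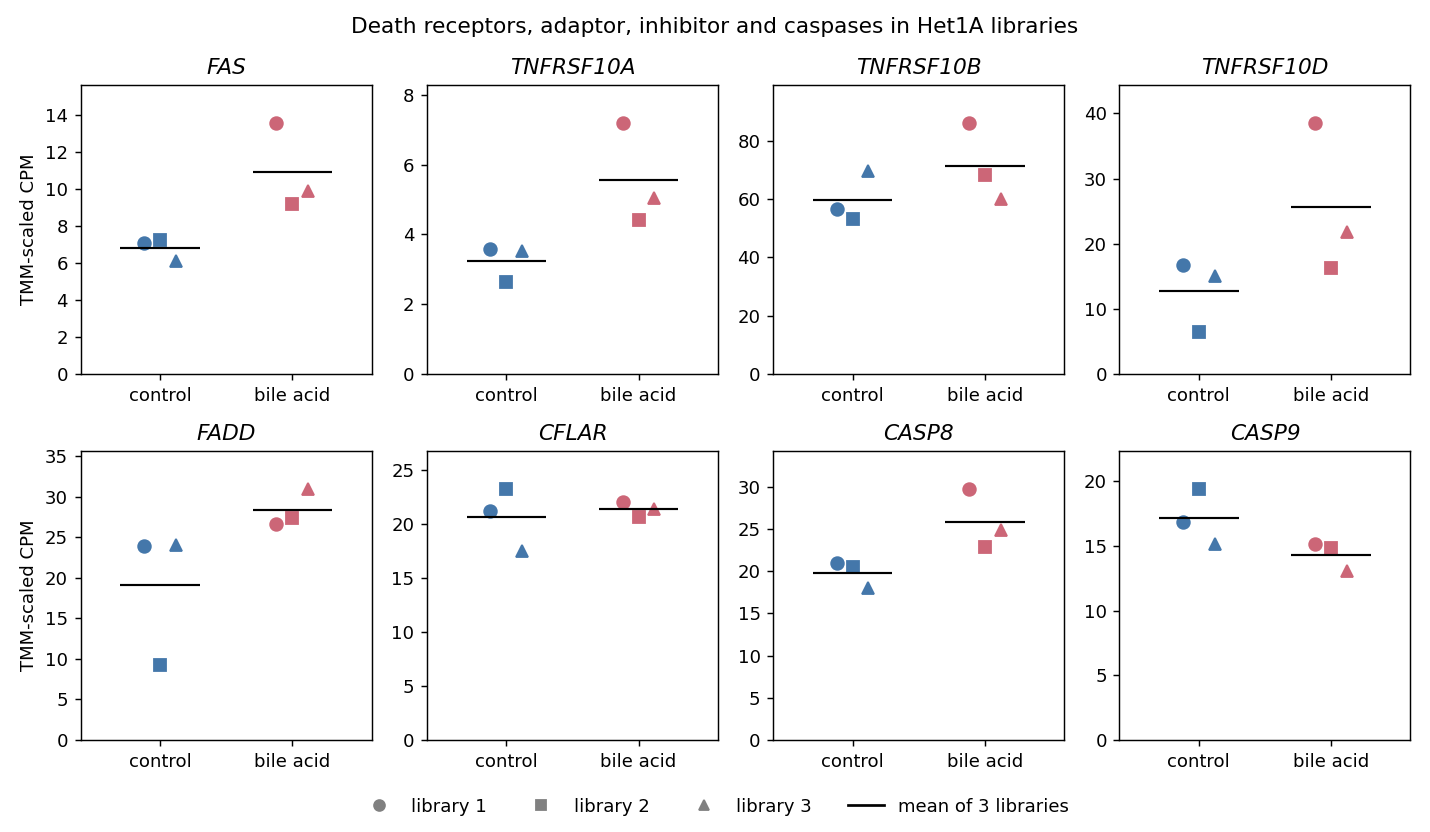
TMM-scaled CPM (vertical axes, starting at 0) of the 8 genes in each control (blue) and bile acid (red) library, with lines at the means of 3 libraries. FAS, TNFRSF10A, FADD and CASP8 show separate groups, bile acid library 1 is the highest in 5 panels, and control library 2 is the lowest in 4.

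FAS, the receptor of FAS ligand (ENSG00000026103, chromosome 10, 88990582 to 89015785, plus strand, GRCh38), measured 7.08, 7.22 and 6.09 CPM in control libraries 1 to 3 and 13.6, 9.21 and 9.91 CPM in bile acid libraries 1 to 3. Even the lowest bile acid library lay above the highest control, and control 2 lay beside the other controls. The mean was 10.9 ± 2.35 CPM in bile acid and 6.80 ± 0.615 CPM in control libraries (SD, n = 3), from 129 to 381 reads per library. The log2 fold change was 0.68 (SE 0.24), and edgeR's adjusted p was 0.911. Without bile acid library 1 the log2 fold change was 0.50 (SE 0.25). Of its exonic length 8.93% is shared with exons of ACTA2, a smooth muscle actin on the opposite strand. ACTA2 had 152, 83 and 143 counts in control and 306, 226 and 290 in bile acid libraries, and since strand-specific counting is not stated, its part in the FAS value was not tested.

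The TRAIL receptor genes TNFRSF10A, TNFRSF10B and TNFRSF10D lie near each other on the minus strand of chromosome 8. TNFRSF10A, which carries a death domain and signals death, measured 3.59, 2.63 and 3.54 CPM in control libraries and 7.20, 4.42 and 5.04 CPM in bile acid libraries. The groups did not overlap, with a log2 fold change of 0.77 (SE 0.31, edgeR adjusted p = 0.911), and counts were low at 47 to 202 reads. Exons of 2 genes on the opposite strand, TNFRSF10A-AS1 and AC100861.1, cover 16.6% of its exonic length. AC100861.1 had 93, 168 and 92 counts in control and 84, 108 and 78 in bile acid libraries. TNFRSF10A-AS1 had 6 to 12 in control and 5 to 23 in bile acid libraries. The part of both genes in the TNFRSF10A value was not tested.

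TNFRSF10B, the other TRAIL receptor with a death domain, measured 56.5, 53.1 and 69.5 CPM in control libraries and 86.2, 68.1 and 60.1 CPM in bile acid libraries. Control 3 lay above bile acid libraries 2 and 3, so the groups overlapped. Its log2 fold change of 0.26 (SE 0.21, edgeR adjusted p = 0.911) was 0.11 without bile acid library 1, a library that at 86.2 CPM lay above the other 5.

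TNFRSF10D, a TRAIL receptor with a truncated death domain that binds the ligand without passing on a death signal, measured 16.8, 6.50 and 15.1 CPM in control libraries and 38.6, 16.3 and 21.8 CPM in bile acid libraries. Bile acid library 1 was the highest and control 2 the lowest, and bile acid library 2 lay just under control 1. Its mean of 25.6 ± 11.6 CPM was 2.00-fold that of control, 12.8 ± 5.54 CPM (SD, n = 3), the largest fold of means among the 8 genes. The log2 fold change of 0.99 (SE 0.44, edgeR adjusted p = 0.911) was 0.69 (SE 0.31) without control 2 and 0.58 (SE 0.43) without bile acid library 1.

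FADD, the adaptor that links receptor and caspase (ENSG00000168040, chromosome 11, 70203163 to 70207390, plus strand), measured 23.9, 9.30 and 24.1 CPM in control libraries and 26.6, 27.4 and 31.0 CPM in bile acid libraries. All bile acid libraries lay above all controls, but controls 1 and 3 were close to bile acid library 1, and control 2 was far below every other library. The log2 fold change was 0.57 (SE 0.36, edgeR adjusted p = 0.911) with all libraries and 0.25 (SE 0.16) without control 2. An annotated antisense gene, AP000879.1, covers 54.9% of the exonic length of FADD and had 0 counts in every library. Since strand-specific counting is not stated, these counts do not show that it was absent. Its part in the FADD value was not tested. FADD in control 2 had 166 reads, against 565 and 665 in controls 3 and 1.

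CFLAR (ENSG00000003402, chromosome 2, 201116104 to 201176687, plus strand) measured 21.2, 23.3 and 17.5 CPM in control libraries and 22.1, 20.7 and 21.5 CPM in bile acid libraries. The bile acid libraries lay within the range of the controls, with means of 21.4 ± 0.695 and 20.7 ± 2.93 CPM (SD, n = 3). The log2 fold change was 0.05 (SE 0.19, edgeR adjusted p = 0.968). It was −0.38 (SE 0.44) once the trend of each library with gene length was removed (its exons span 22529 bp in all), and it was −0.050 without control 3.

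CASP8, the caspase that the receptor complex activates (ENSG00000064012, chromosome 2, 201233443 to 201287711, plus strand), measured 20.9, 20.6 and 18.0 CPM in control libraries and 29.8, 22.9 and 24.9 CPM in bile acid libraries. The groups did not overlap, and bile acid library 1 was again the highest. The means were 25.9 ± 3.53 and 19.8 ± 1.58 CPM (SD, n = 3), 1.30-fold, from 367 to 835 reads per library. The log2 fold change was 0.38 (SE 0.19, edgeR adjusted p = 0.911), 0.42 without control 2 and 0.21 (SE 0.25) with the length trend removed. No exon of another annotated gene overlaps it.

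CASP9, the initiator caspase of the mitochondrial branch (ENSG00000132906, chromosome 1, 15490832 to 15526534, minus strand), was the member with a negative value. It measured 16.9, 19.4 and 15.1 CPM in control libraries and 15.1, 14.8 and 13.0 CPM in bile acid libraries. Control 3 and bile acid library 1 were nearly equal, so that all bile acid libraries lay below all controls with TMM scaling and overlapped them with RLE scaling. The log2 fold change was −0.26 (SE 0.20, edgeR adjusted p = 0.911) and −0.15 without control 2, so its size was not beyond the spread between libraries.

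**Figure D2:**
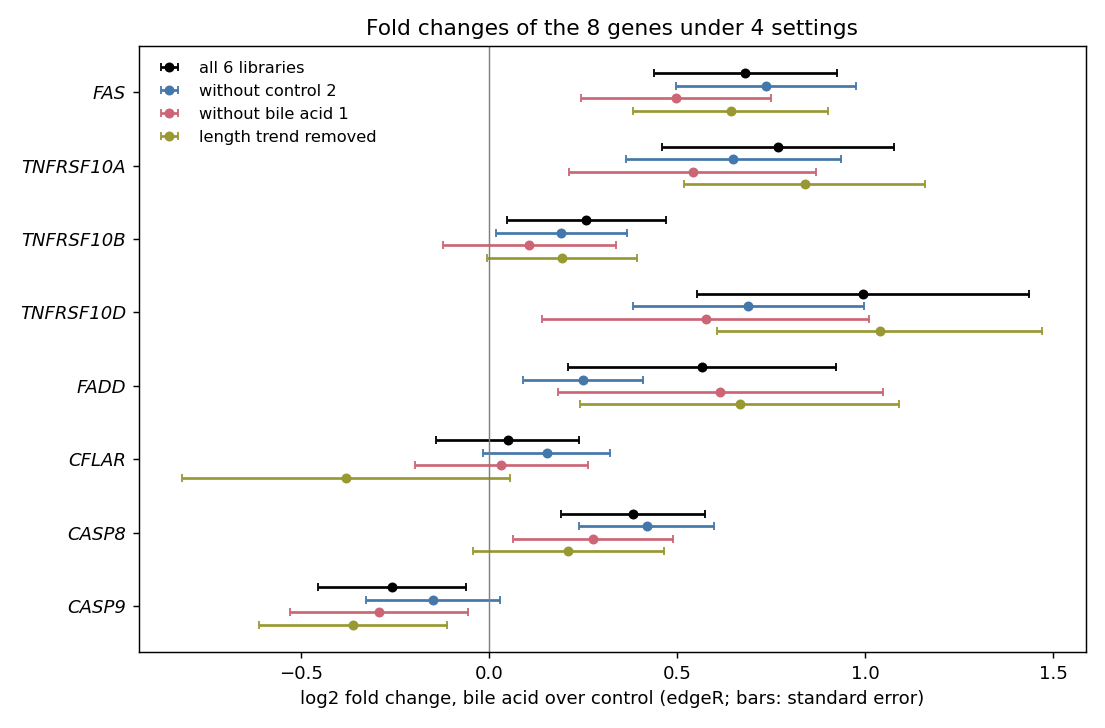
Log2 fold changes of bile acid over control libraries (horizontal axis, edgeR) with standard errors as bars for the 8 genes, with all libraries, without control 2, without bile acid 1, and with the length trend removed. The values of FAS, TNFRSF10A, TNFRSF10B, TNFRSF10D, FADD and CASP8 stay positive in all 4 settings, that of CASP9 stays negative, and that of CFLAR turns negative when the length trend is removed.

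Without control 2 the median over the 8 genes was 0.335, with 7 positive values (50.8% of all genes were positive) and 0 called in edgeR, where 1 gene in all (0.00547%) was called. There were then 4 members higher at an unadjusted p under 0.05, FAS, TNFRSF10A, TNFRSF10D and CASP8, against 5.02% of all genes. DESeq2 without control 2, an alternative chosen after seeing the data, called 158 genes (0.979%) and 0 members, with FAS the lowest at an adjusted p of 0.203. Without bile acid library 1 the median was 0.386 and 0 members had an unadjusted p under 0.05 in edgeR, where 231 of 18342 genes (1.26%) had one, against 588 of 17743 with all libraries. That library had the highest value of 5 members, FAS, TNFRSF10A, TNFRSF10B, TNFRSF10D and CASP8. Control 2 had the lowest value of 4, TNFRSF10A, TNFRSF10B, TNFRSF10D and FADD, and the highest of CFLAR and CASP9.

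Since CFLAR and CASP8 products compete in 1 complex, their ratio was taken within each library, where scaling cancels. The ratio of FPKM (fragments per kilobase of exonic length, scaled to library depth, as deposited) was 0.327, 0.364 and 0.312 in control libraries and 0.238, 0.290 and 0.277 in bile acid libraries. Every bile acid library lay below every control library. The mean log2 ratio was −1.90 ± 0.148 in bile acid and −1.58 ± 0.114 in control libraries (SD, n = 3), a difference of −0.32 (exact two-sided permutation test, p = 0.1, the smallest that 3 against 3 libraries can give). Leaving out control 2 gave −0.26, and leaving out bile acid library 1 gave −0.24. With the length trend removed it was −0.44 and the groups overlapped (exact permutation test, p = 0.3). The CFLAR values of the groups overlapped and the CASP8 values did not.

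The decoy receptor was set against a signalling receptor in the same way. The ratio of TNFRSF10D to TNFRSF10B was 0.434, 0.178 and 0.318 in control libraries and 0.653, 0.350 and 0.530 in bile acid libraries. Bile acid library 2 lay between controls 3 and 1, so the groups overlapped. The log2 difference was 0.77 (exact two-sided permutation test, p = 0.2), and 0.41 without control 2. Adjusted over these 2 ratios by the Benjamini-Hochberg method, the exact permutation p was 0.2 for both.

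**Figure D3:**
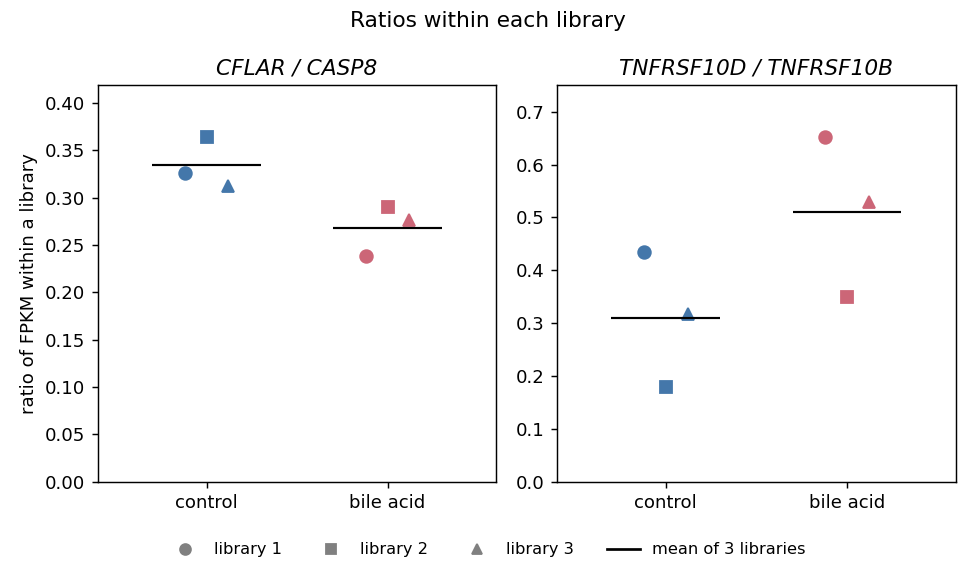
Ratios of FPKM within each library (vertical axes, starting at 0) for CFLAR over CASP8 and TNFRSF10D over TNFRSF10B, with lines at the group means of the ratios. The CFLAR to CASP8 ratio is 0.312 to 0.364 in controls and 0.238 to 0.290 in bile acid libraries, and the decoy ratio overlaps.

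Levels of different genes were compared per length, as FPKM over all 6 libraries. FADD, at 11.1 FPKM on average (range 4.30 to 14.4), and TNFRSF10B, at 10.9 (8.77 to 14.2), were the most abundant, and neither exceeded the other in more than 3 of 6 libraries. TNFRSF10D followed at 4.66 FPKM (1.56 to 9.28) and lay under TNFRSF10B in 6 of 6 libraries. CASP8 at 2.71 FPKM (2.17 to 3.50) and CASP9 at 2.57 FPKM (2.11 to 3.14) could not be ordered on this scale. In FPKM CASP8 was higher in 3 of 6 libraries, namely those with bile acid. FAS at 1.78 FPKM (1.25 to 2.72) exceeded TNFRSF10A at 1.28 FPKM (0.759 to 2.08) in 6 of 6 libraries. CFLAR was last at 0.802 FPKM (0.678 to 0.880), though its ranges and those of TNFRSF10A overlapped.

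The place of CFLAR depends on the length used. Its 25 annotated transcripts cover 22529 bp of exon, while the median coding transcript of the GENCODE basic set is 1646 bp long. Counted per kilobase of that median coding transcript, CFLAR stood at 12.8 CPM per kb, rank 3 after TNFRSF10B at 22.4 and FADD at 12.9, and just above CASP8. TNFRSF10D, with 1 transcript of 3538 bp, moved from rank 3 to rank 7 at 5.43 CPM per kb. Which transcripts were present is not given by counts per gene, so neither scale is a measured transcript level, and the levels of FLIP isoforms were not analysed here.

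**Figure D4:**
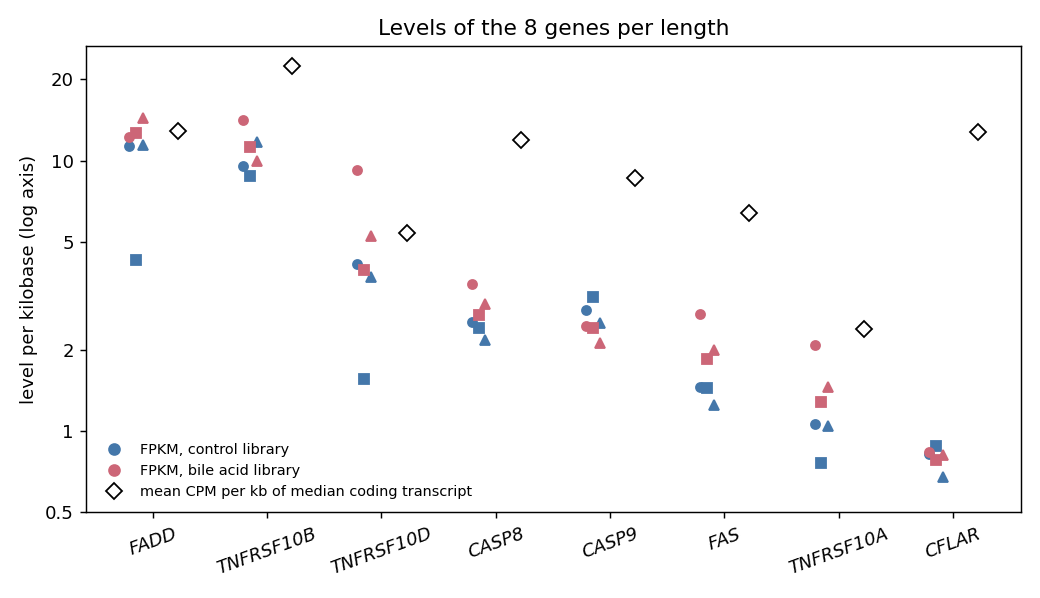
Level per kilobase (log axis) of the 8 genes, ordered by mean FPKM. Filled points are FPKM in single control (blue) and bile acid (red) libraries, and open diamonds are mean CPM per kilobase of the median coding transcript, on which CFLAR stands at 12.8 in place of 0.802 FPKM.

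Short stretches at the start sites of FAS, FADD, CASP8 and CFLAR are shown because the bile acid libraries of FAS, FADD and CASP8 lay above all controls and those of CFLAR did not, a choice made after the values were seen. RefSeq windows (GRCh38.p14) from 250 bases before to 50 bases after a start were found for 5 members, 13 windows in all. They were searched on both strands for TGANTCA, the letters of an AP-1 site with the middle base, usually C or G, left open. The κB motif of NF-κB (GGGA, 4 open bases, CC) was searched for in the same way. The letters TGANTCA were found in 5 of 13 windows, against 7.7% of 35116 windows of all genes, and the κB letters in 2 of 13, against 25.6%. By gene, the letters TGANTCA were in at least 1 window of 4 of 5 members, against 9.4% of 27305 genes, and the κB letters in 2 of 5, against 7905 of 27305 genes. These shares by gene are not alike, since the members have 13 windows for 5 genes and all genes 35116 windows for 27305. Windows of 1 gene can overlap, and a match is a description of letters, not a site in use. The TGANTCA matches, in capitals within 30 bases of the plus strand, all 5′ to 3′, are:
FAS, chr10:88990548-88990577: caagttgcTGAATCAatggagccctcccca
FADD, chr11:70203306-70203335: atttcctgtagTGAATCAggcaccggagtg
CASP8, chr2:201258023-201258052: tcttgttcgagTGAGTCAtctctgttctgc
CASP8, chr2:201260464-201260493: tctagtgtttgTGACTCAggagtttcgaaa
CFLAR, chr2:201132610-201132639: aatatggtcctTGAATCAacatcacctgag
The matches of FAS and FADD share the core TGAATCA with that of CFLAR, while those of CASP8 read TGAGTCA and TGACTCA. Only the CASP8 matches thus have C or G as the middle base. The match of FADD lies after its start, at bases 21 to 27. The windows of CASP9 held no match of either kind.

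Of 42 further genes of the cell death pathways, in 9 lists by role, 32 could be tested. In edgeR 0 were called, and 22 values were positive and 10 negative, where 48.8% of all genes tested were positive. The median log2 fold change was 0.12 against −0.0111 over all genes tested. All 3 bile acid libraries lay above all controls in 4 tested genes, TNFRSF1A, CASP1, MLKL and CDKN1A, and below them in 1. Of all genes tested 5.29% lay above and 4.89% below. An unadjusted p under 0.05 in edgeR was reached by 2, BIRC3 and MLKL, both higher in the bile acid group. Of all genes tested 1.93% reached it as higher and 1.39% as lower.

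Ligand transcripts other than TNFSF10 were at or near 0. FASLG and TNF had 0 counts in every library, where the limit of 3 counts corresponds to 0.104 to 0.168 CPM, a limit that covers counting error only. LTA had 0 to 8 counts, and TNFSF15, a ligand of the death receptor TNFRSF25, had 0 counts in each control and 6, 8 and 1 in bile acid libraries, which is below the filter. TNFSF10, which encodes TRAIL, measured 1.58, 1.06 and 0.895 CPM in control libraries and 3.99, 1.02 and 1.70 CPM in bile acid libraries. Its log2 fold change of 0.92 (SE 0.58, edgeR adjusted p = 0.911) was 0.21 without bile acid library 1, the only library above 2 CPM.

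Among other receptors, TNFRSF1A, the main receptor of TNF, measured 56.8, 59.3 and 55.9 CPM in control libraries and 68.5, 75.0 and 74.4 CPM in bile acid libraries. The groups were apart and close within themselves, at 72.6 ± 3.61 against 57.3 ± 1.79 CPM (SD, n = 3), with a log2 fold change of 0.34 (SE 0.16, edgeR adjusted p = 0.911). The decoys TNFRSF10C with 0 to 2 counts, TNFRSF6B with 0 and TNFRSF11B with 0 to 11 were not tested. Among the decoy receptors named here, TNFRSF10D was thus the only one above the filter.

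Of 8 adaptors and ubiquitin regulators 5 had positive and 3 negative values. BIRC2, a ubiquitin ligase of receptor complexes, measured 95.1 ± 3.77 against 90.6 ± 9.90 CPM (SD, n = 3). BIRC3, its close relative and outside the rule for named genes, was chosen after its values were seen: 16.0, 8.51 and 12.5 CPM in control and 31.6, 14.8 and 28.6 CPM in bile acid libraries. Bile acid library 2 lay under control 1, so the groups overlapped, and the log2 fold change was 1.01 (SE 0.36, edgeR adjusted p = 0.911).

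Among genes that act after the initiators, CASP6, an executioner caspase, and DFFA and DFFB, the inhibitor and the nuclease that cuts DNA in dying cells, had log2 fold changes of 0.11, 0.06 and 0.08, each with overlapping groups. These genes lie outside the rule for named genes and were chosen after their values were seen. DFFA was −0.10 with the length trend removed, and CASP6 and DFFB were −0.07 and −0.08 without control 2. CASP2, another initiator, measured 57.7 ± 7.51 against 48.9 ± 7.80 CPM. In the mitochondrial branch 3 of 6 values were positive, and CYCS, cytochrome c, measured 208, 383 and 254 CPM in control and 279, 249 and 217 CPM in bile acid libraries, with control 2 above the rest. APAF1, the core of the apoptosome and chosen after its values were seen, stood at 6.05 CPM in control 2 against 23.1 to 37.3 CPM in the other 5 libraries. DIABLO has 2 identifiers in the table and its value is uncertain.

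Of 4 inflammatory and other caspases 2 were tested and 0 were called. CASP5 had 4 counts in control 3 and 0 in every other library. CASP1, which activates interleukin-1 beta, measured 2.48, 3.42 and 2.81 CPM in control and 4.96, 3.47 and 5.04 CPM in bile acid libraries, without overlap. CASP4, which senses bacterial lipopolysaccharide in the cytosol, measured 33.6, 60.5 and 44.6 CPM in control and 59.5, 57.6 and 58.2 CPM in bile acid libraries. Control 2 lay above all bile acid libraries, and without it the log2 fold change went from 0.34 (SE 0.24) to 0.59, with an adjusted p of 0.353 in edgeR. MLKL, which breaches the membrane in necroptosis, measured 3.70, 1.57 and 2.90 CPM in control and 6.81, 4.68 and 5.32 CPM in bile acid libraries, a log2 fold change of 1.03 (SE 0.38, edgeR adjusted p = 0.911). RIPK3, the kinase that activates MLKL, had 0 to 2 counts.

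CDKN1A, an inhibitor of cyclin-dependent kinases, ranged from 67.8 to 75.7 CPM in control libraries and was 185, 89.4 and 87.0 CPM in bile acid libraries, a log2 fold change of 0.73 (SE 0.32) that was 0.28 without bile acid library 1. DDIT3, a stress factor that induces TNFRSF10B, stood at 173 CPM in control 2 and at 21.7 to 58.0 CPM in the other 5, and its log2 fold change of −1.12 (SE 0.66) was −0.02 without control 2.

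**Figure D5:**
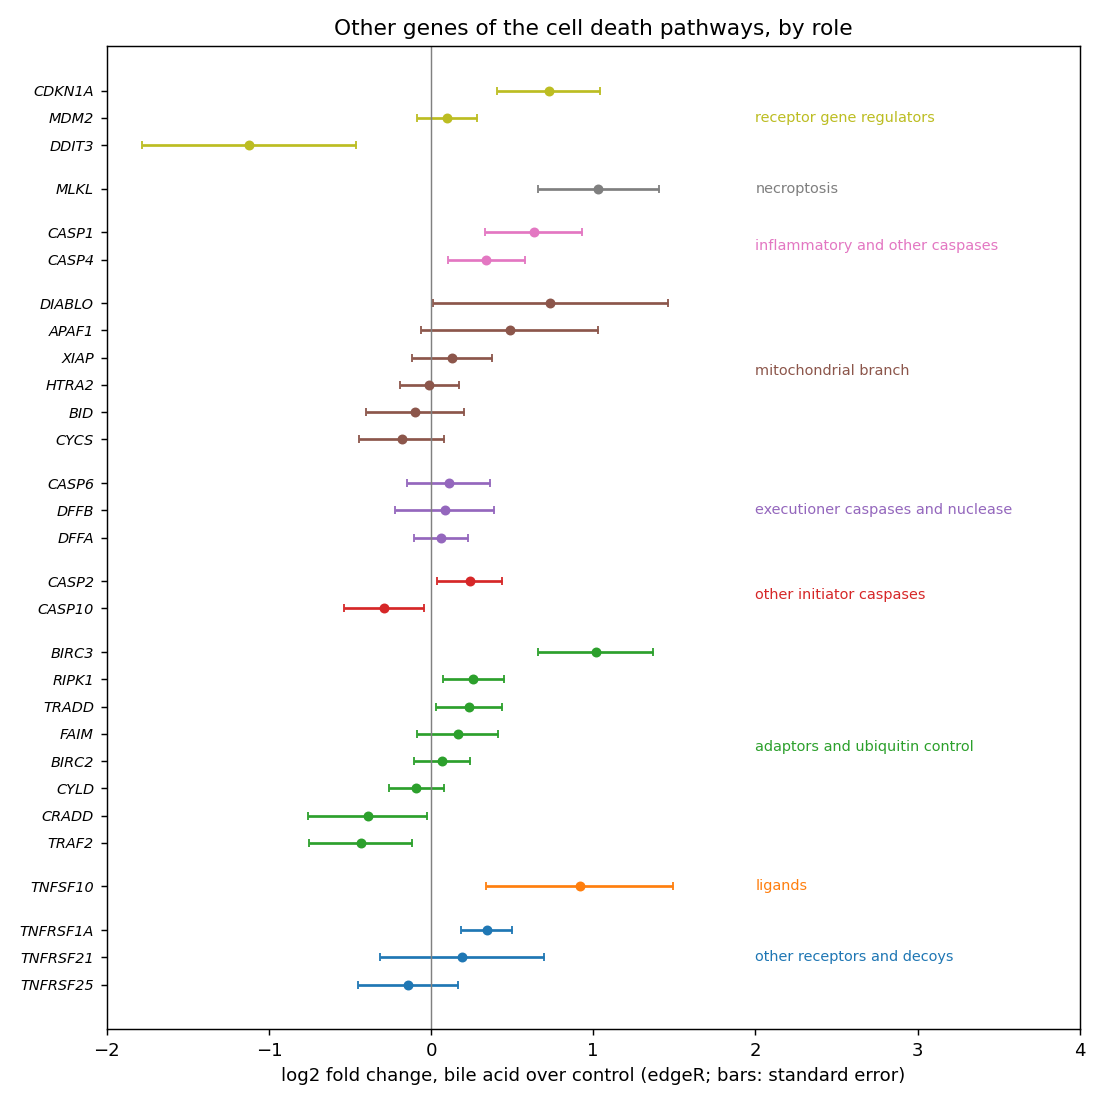
Log2 fold changes of bile acid over control libraries (horizontal axis, edgeR, 6 libraries) with standard errors as bars for tested pathway genes, coloured by list. BIRC3 and MLKL are the highest at 1.01 and 1.03, DDIT3 is the lowest at −1.12, and CASP6, DFFA and DFFB lie between 0.06 and 0.11.

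In the authors' deposited table of single genes, 19 genes had an adjusted p under 0.05 (0.129%), and 0 members did. There FAS had a log2 fold change of 0.71 with an adjusted p of 0.926, and TNFRSF10D one of 1.02 with an adjusted p of 0.977. The authors' deposited table of Gene Ontology terms lists 7 terms of extrinsic apoptosis among 2196, all with a positive normalized enrichment score. For the extrinsic apoptotic signaling pathway, of 212 genes, that table gives a score of 2.03 and an adjusted p of 1.84e-07, with 5 members, FAS, TNFRSF10A, TNFRSF10B, FADD and CASP8, among its 60 leading genes. For the negative regulation of that pathway it gives a score of 1.88 and an adjusted p of 0.000861, with 0 members among 25 leading genes. The share of positive scores over all 2196 terms was not counted here. The p-values of these terms come from a test over genes, which are not independent replicates, and do not measure the spread between libraries. The authors' deposited tables come from the same 6 libraries.

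Likeness to other genes was measured as the root mean square difference of log2 CPM, each gene centred on its mean, over 6 libraries and 17742 other genes. Nearest to FAS were MXD1 at 0.0716, the pseudogene BNIP3P1 at 0.0944 and CNN2 at 0.102. Nearest to CASP8 were ALDH1B1 at 0.0449, PPARG at 0.0466 and C2orf48 at 0.0562. Nearest to CFLAR were BBS5 at 0.0312, NOC2L at 0.0333 and RRBP1 at 0.0411.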

How the data were processed

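Per the submitters' processing notes, HISAT2 2.0.5, featureCounts, DESeq2 and GRCh38 were used by the authors, without stated roles. Neither annotation nor strand setting is stated by the sources used here. Of the genes, 58724 of 58735 have the coordinates and exonic length of GENCODE 29. The deposited counts are whole reads per gene. The deposited FPKM are scaled by the authors to exonic length and library depth. The deposited normalized counts are a signal. Multiplied by 1 factor for each library, 100% of values came out whole within 0.001, totals were 3.84 to 4.2% above the count table, and edgeR on these reads called 0 genes. The authors' deposited comparison gives a log2 fold change, its SE, a test score and p-values per gene, and, per the file headers, their Gene Ontology table holds scores, p-values and other values such as term size.

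Groups came from the titles. edgeR 4.0.16 (R 4.3.3) was fitted to the counts with TMM factors and filterByExpr, called at an adjusted p under 0.05; SE is the log2 fold change over the root of F. CPM use the same factors. The alternatives used DESeq2 1.42.0, limma 3.58.1, other scalings and filters, a replicate block, removal of length trends (lowess, span 0.3) and each library left out. Scripts were checked on simulated counts. Named genes were the 8 members, per list the most abundant gene by FPKM and those whose groups did not overlap, and the 3 genes nearest to FAS, CFLAR and CASP8; some pathway genes are not reported here. The members and lists were chosen with earlier results of these data known.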

Additional observations from a re-analysis of the deposited data

How the results depend on the processing

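All alternatives use the same libraries, so their values are not independent of each other. The groups of FAS, TNFRSF10A, FADD and CASP8 did not overlap, so leaving out a single library could hardly change their signs. The 8 members kept their sign in 157 of 160 values over 20 alternatives each, and 0 of these values were called. The exceptions were CFLAR, whose log2 fold change of 0.05 was −0.38 with the length trend removed, −0.19 with the replicate block and the length trend removed, and −0.050 to 0.153 when single libraries were left out, lowest without control 3. Among pathway genes BIRC2 went from 0.07 to −0.0075 in edgeR and −0.0087 in DESeq2, and CYCS from −0.18 to 0.12 in edgeR and 0.11 in DESeq2, each without control 2. Leaving out other libraries gave up to 0.134 for BIRC2 and down to −0.351 for CYCS. The cause was not tested. The number of genes called over the whole table was 0 in edgeR, 19 in DESeq2 and 158 in DESeq2 without control 2, and it ranged from 0 to 1 in edgeR when single libraries were left out. Both ratios kept their direction in all alternatives. Values lay between −0.236 and −0.442 for CFLAR to CASP8 and between 0.414 and 1.06 for TNFRSF10D to TNFRSF10B. Several alternatives could not have reversed it. Coding transcript length and the replicate block return the main difference by construction. The CFLAR to CASP8 groups did not overlap, so leaving out a single library could not change that sign. With the replicate block edgeR called 0 genes, at 1109 unadjusted p under 0.05 against 588 without it, and TNFRSF10D had a log2 fold change of 1.02 (SE 0.24, adjusted p = 0.679). The labels give replicate numbers but no shared batch, so the numbers were not taken as pairs in the main fit. The deviations of same-numbered libraries correlated at 0.307, 0.382 and 0.0979 across genes, and those of differently numbered libraries at −0.413 to 0.189. Controls 1 and 2 correlated best with the bile acid library of their number, and control 3 with bile acid library 1 (0.189). Whether the numbers mark pairs was not tested. Counts were low for TNFRSF10A (47 to 202 reads per library) and TNFSF10 (19 to 112).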

Other observations

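The balance of the initiator caspases of both branches was not among the planned comparisons and was looked at after the values were seen. The ratio of CASP8 to CASP9 in FPKM was 0.903, 0.769 and 0.867 in control libraries and 1.43, 1.12 and 1.39 in bile acid libraries. Per exonic length CASP9 thus exceeded CASP8 in each control library and CASP8 exceeded CASP9 in each bile acid library. In counts, before division by length, the ratio was 1.06 to 1.97, so CASP8 lay above CASP9 in every library, controls included. Which of these genes was higher in the controls therefore depends on the length used, and a switch of order was not shown. The log2 difference was 0.63, given with no test since the ratio was chosen for these values, 0.56 without control 2, 0.57 without bile acid library 1 and 0.575 with the length trend removed.

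In control library 2, FADD, TNFRSF10D and APAF1 had their lowest values, at 9.30, 6.50 and 6.05 CPM, and CFLAR and CASP9 their highest, at 23.3 and 19.4 CPM. The exonic lengths of these 5 genes are 1841, 3538, 7908, 22529 and 5269 bp. The genes were chosen after their values were seen, and the cause was not tested.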
